A study of Drosophila melanogaster with 6 samples.

Results

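The JAK-STAT pathway carries a signal from secreted Unpaired cytokines to the nucleus. The ligands Upd1, Upd2 and Upd3 bind the receptor Domeless, the kinase Hopscotch (the fly JAK) phosphorylates the receptor and the transcription factor Stat92E, and Stat92E then switches on target genes, among them Socs36E, which dampens the signal. In the fly embryo the pathway acts in segmentation, in the hindgut and the posterior spiracles, and in the tracheal placodes, where it is known to help start the expression of trh and vvl. Members were chosen by the gene symbol that the platform annotation gives to a probe set. Of the 7 genes sought, upd1, upd2, dome and Stat92E were each named by 1 probe set, which makes 4 of the 11981 genes that were represented on the array by a probe set naming them alone. No probe set carried the name of upd3, hop or Socs36E in the annotation used here, so a ligand, the kinase and the feedback inhibitor were not analysed here.

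RNA from whole embryos was hybridised to 6 Affymetrix arrays, 3 for wild type and 3 for trh null animals. The labels do not name the wild type strain or the trh allele. Eggs were collected for 8 h and aged for another 11 h, and the labels place all embryos at stages 11 to 16, although the wild type description ends at stage 17. All embryos were sorted by machine, and those lacking the GFP of the balancer chromosome were taken as trh null. Trh (trachealess) is a bHLH-PAS transcription factor needed for the trachea, the salivary duct and the filzkörper of the posterior spiracles. The series title gives the aim as finding how far tracheal genes depend on it.

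The values are log2 signals as the authors deposited them. Median signals of the arrays lay between 6.16 and 6.22. The trh transcript itself was not analysed here. Of 8 markers of the trachea, btl and Gasp fell in trh null embryos (log2 means of 6.98 and 5.60 for btl and of 13.02 and 11.49 for Gasp), dysf rose by its brightest probe set and fell by another, and 5 did not pass the test. The shares of all genes were 7.31% passing as lower and 6.79% as higher. Wild type replicate 2 stood apart: its root mean square distance from the mean of the other wild type arrays was 0.49 on the log2 scale, against 0.14 to 0.34 for the remaining arrays. The labels do not state separate egg collections for the replicates, so the p-values cover the variation among these 6 arrays, possibly technical, and the number of arrays limits the precision. Below, "passed", "rose" and "fell" mean an adjusted p under 0.05 in limma's moderated test over 18769 probe sets, and the direction is that of the trh null arrays.

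None of the 4 measured pathway genes passed the test in trh null embryos, and none had an unadjusted p under 0.05 either. Of all genes, 14.1% passed, 6.79% as higher and 7.31% as lower. Signals of different probe sets depend on their probes, so the 4 genes were not ranked by transcript level, but upd2 lay under the median of all probe sets, 6.19, on all 6 arrays. Because RNA was taken from whole embryos, fewer cells of a type and less RNA per cell cannot be told apart, and other tissues could mask a change in tracheal cells.

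The ligand gene upd1 (probe set 1633968_at) had signals of 7.07, 7.11 and 6.45 on wild type arrays 1 to 3 and of 7.30, 7.04 and 7.22 on trh null arrays 1 to 3, on the log2 scale. The groups overlapped, and wild type replicate 3 was the low value. The means were 6.87 ± 0.37 and 7.19 ± 0.13 (SD, n = 3), a log2 difference of 0.31 (SE 0.19, 95% interval -0.15 to 0.77, limma adjusted p = 0.353). On the linear scale the interval ran from 0.902 to 1.71 times the wild type signal. Without wild type replicate 3 the log2 difference was 0.10 (adjusted p = 0.605).

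The second ligand gene, upd2 (1623718_at), whose product also serves as a leptin-like signal from the fat body in larvae and adults, was the only one of the 4 whose groups did not overlap. Its log2 signals were 5.48, 5.43 and 5.64 in wild type embryos and 5.30, 5.37 and 5.35 in trh null embryos. All 3 trh null values were lower, by a small margin. The means were 5.52 ± 0.11 and 5.34 ± 0.04 (SD, n = 3), a log2 difference of -0.18 (SE 0.08, 95% interval -0.38 to 0.02, limma adjusted p = 0.235). Of all genes, 38.2% had groups that did not overlap, 19.4% with all trh null values lower, so such a separation in 1 of 4 genes lay close to the background. The log2 difference was -0.12 without wild type replicate 3. A signal this dim may understate a change of the transcript, which was not tested.

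For dome (1632381_at), the gene of the receptor, log2 signals were 10.23, 10.43 and 10.63 in wild type embryos and 10.89, 10.55 and 10.62 in trh null embryos. The highest wild type array reached above the lower 2 of the trh null arrays, so the groups overlapped. The means were 10.43 ± 0.20 and 10.69 ± 0.18 (SD, n = 3), with a log2 difference of 0.26 (SE 0.14, 95% interval -0.08 to 0.60, limma adjusted p = 0.297). Leaving out wild type replicate 1 or trh null replicate 1 gave a log2 difference of 0.16 each time. The neighbouring gene et (eye transformer) encodes a short receptor that resembles Domeless and damps the signal. Its probe set did not overlap between genotypes, with log2 signals of 5.99, 6.15 and 5.76 in wild type embryos and of 6.23, 6.28 and 6.24 in trh null embryos. The log2 difference of et was 0.28 (SE 0.11, limma adjusted p = 0.173), and without wild type replicate 2 it passed (0.37, adjusted p = 0.0255). Of all genes, 18.8% had all trh null values higher, and 32.2% passed without wild type replicate 2, 17.4% as higher.

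The transcription factor gene Stat92E (1635827_s_at) differed most between arrays of 1 genotype. Its log2 signals were 10.49, 9.46 and 11.06 in wild type embryos and 10.64, 10.49 and 10.51 in trh null embryos. The 3 trh null values lay inside the wild type range. The means were 10.34 ± 0.81 and 10.55 ± 0.09 (SD, n = 3), a log2 difference of 0.21 (SE 0.38, 95% interval -0.70 to 1.12, limma adjusted p = 0.777). The wild type SD was larger than that of 97.3% of all probe sets. Without wild type replicate 2, the lowest array, the log2 difference turned to -0.23 (SE 0.16, adjusted p = 0.359), and without wild type replicate 3, the highest, it was 0.57 (SE 0.30, adjusted p = 0.299). No direction can therefore be given for Stat92E.

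**Figure D1:**
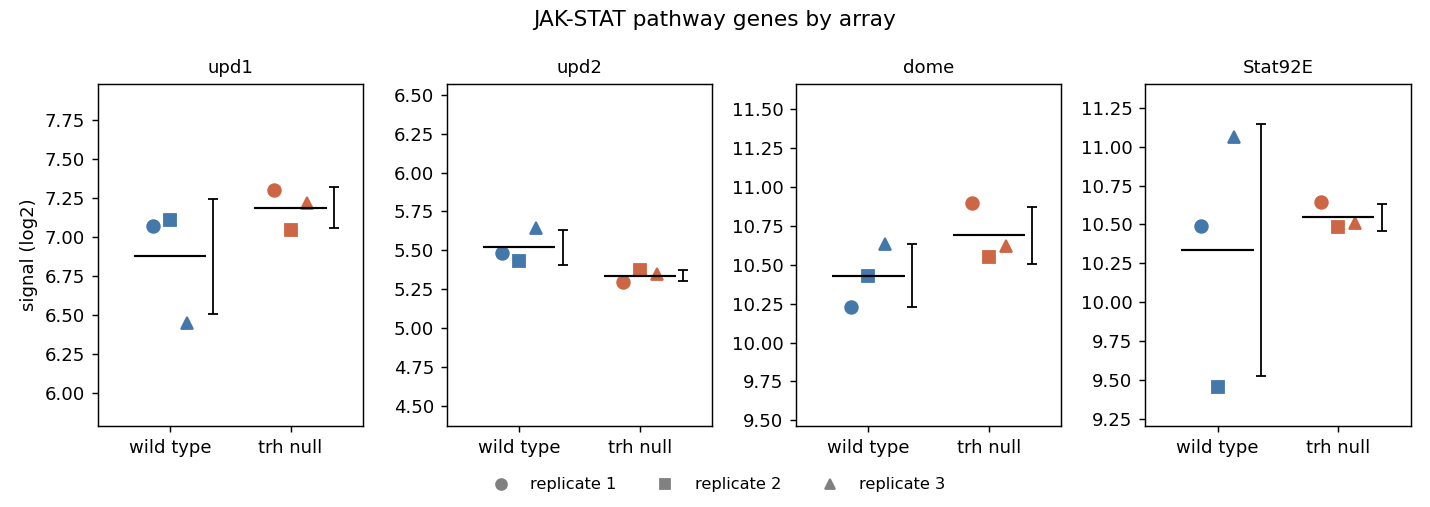
Log2 signal (y axis, spanning the same number of log2 units in each panel) of upd1, upd2, dome and Stat92E on 3 wild type and 3 trh null arrays. Points are arrays, horizontal bars are means and vertical bars are ± 1 SD; the wild type values of Stat92E run from 9.46 to 11.06 and enclose all 3 trh null values, while for upd2 all 3 trh null values lie below the wild type ones.

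How large a difference the arrays could have called varied among the genes. With the spread of each probe set, an adjusted p under 0.05 required a log2 difference of about 0.34 for upd2, 0.57 for dome, 0.77 for upd1 and 1.53 for Stat92E. The measured differences of all 4 were smaller than these, which restates that none passed. For upd2 the 95% interval reached from 0.766 to 1.02 times the wild type signal, for dome from 0.947 to 1.51 times and for Stat92E from 0.614 to 2.18 times. The intervals of all 4 hold 0 on the log2 scale, which does not show that the transcripts were equal.

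**Figure D2:**
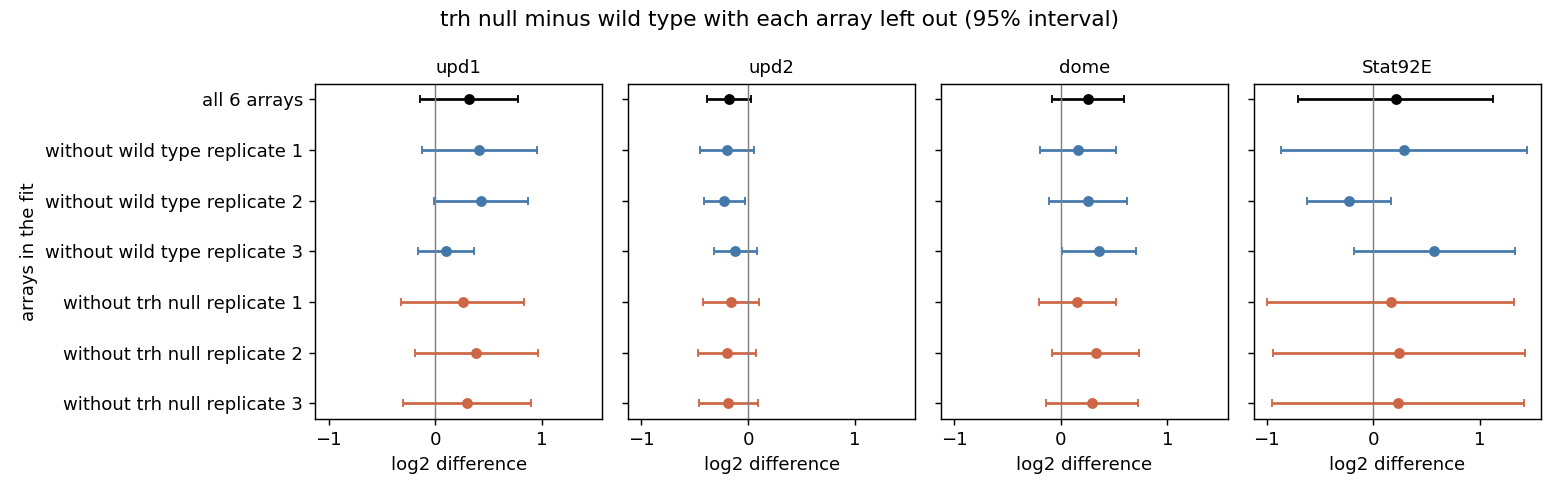
Log2 difference between trh null and wild type (x axis) with its 95% interval for each of the 4 genes, fitted with all 6 arrays (black) and with each array left out in turn (y axis; blue for a wild type array, orange for a trh null array). The estimate for Stat92E moves from 0.57 to -0.23 with the wild type array left out, whereas upd1, upd2 and dome keep their sign in all 7 fits.

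Genes alike in pattern over the 6 arrays were sought only among those with a mean signal above the median of all genes. The closest were RPA2 for upd1, Tab2 for upd2, wdn for dome and Cpsf160 for Stat92E. Likeness was the root mean square difference of mean-centred log2 signals, which was 0.07, 0.03, 0.03 and 0.09 in that order. None of these 4 genes passed the test, which follows from their likeness to genes that did not pass.

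Among 11 measured modulators of the pathway, wdp fell and BRWD3 rose in trh null embryos, and 9 did not pass (0 of 4 core genes passed, and 14.1% of all genes). The median log2 difference of the 11 was 0.28 (0.02 without wild type replicate 2), against 0.00 over all genes. Windpipe (wdp) is a leucine-rich repeat membrane protein, itself a pathway target, that promotes breakdown of the receptor in the gut. Its log2 signals were 9.45, 8.31 and 9.55 in wild type embryos and 7.64, 7.77 and 7.85 in trh null embryos. All trh null values were lower, with wild type replicate 2 the closest to them. The signal of wdp fell 2.55-fold (a log2 difference of -1.35, SE 0.33, limma adjusted p = 0.0465). This call was lost with any 1 array other than wild type replicate 2 left out (adjusted p from 0.107 to 0.155) and with cyclic loess (0.0582). It was also lost with replicate number added to the fit (limma adjusted p = 0.0961).

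BRWD3, a bromodomain and WD repeat protein that screens in fly cells linked to JAK-STAT output, had log2 signals of 9.62, 9.14 and 9.72 in wild type embryos and of 10.38, 10.13 and 10.22 in trh null embryos. All trh null values were higher. BRWD3 rose 1.68-fold (log2 difference 0.75, SE 0.17, limma adjusted p = 0.0359). It no longer passed without wild type replicate 1 (adjusted p = 0.0669), without any 1 of the trh null arrays (0.104 to 0.136) or with cyclic loess (0.0736).

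On all 6 arrays no other measured modulator passed, and the feedback inhibitor gene Socs36E was not analysed. The suppressor of cytokine signalling gene Socs16D missed the threshold narrowly, with a log2 difference of 0.36 (SE 0.09, limma adjusted p = 0.0503) and all trh null values higher, while its relative Socs44A had a log2 difference of -0.29 (SE 0.13, adjusted p = 0.220) and all trh null values lower. For Socs16D a second, dimmer probe set gave 0.08 (adjusted p = 0.615). The tyrosine phosphatase gene Ptp61F gave log2 differences of 0.54 and 0.64 with its 2 probe sets, and Su(var)2-10, which encodes the PIAS-type SUMO ligase that binds Stat92E, gave 0.74 and 0.44. The gene of the BCL6-like repressor ken, which shares DNA sites with Stat92E, had a log2 difference of -0.46 (SE 0.24, adjusted p = 0.279). Log2 differences were -0.12 for apt, 0.62 for E(bx), a subunit of the NURF remodeller, and 0.27 for dlp, a glypican that binds Upd. Without wild type replicate 2, where 32.2% of all genes passed (17.4% as higher and 14.8% as lower), 6 of the 11 modulators did: et, Socs16D and BRWD3 as higher and ken, wdp and apt as lower. In that fit the brightest probe sets of Su(var)2-10, Ptp61F, dlp and E(bx) gave log2 differences of 0.37, 0.31, 0.02 and -0.07, and Socs44A gave -0.15.

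Of 14 measured genes listed as targets of the pathway, or as responding to it, in embryos or stem cells, grh and en rose in trh null embryos, none fell and 12 did not pass. Calls in 2 of 14 genes lay at the share of all genes that passed, 14.1% (6.79% as higher). Log2 differences were above 0 for 13 of the 14, with a median of 0.55 against 0.00 over all genes. For 8 of them all trh null values were higher than all wild type values, a separation that 18.8% of all genes showed. The epithelial transcription factor gene grh rose 1.74-fold, with log2 means of 10.90 ± 0.26 in wild type embryos and 11.70 ± 0.05 in trh null embryos (SD, n = 3), with a log2 difference of 0.80 (SE 0.14, limma adjusted p = 0.0162). Its second probe set gave 0.59 and passed too (adjusted p = 0.0207). The segment polarity gene en rose 1.56-fold, with log2 means of 9.61 ± 0.19 and 10.25 ± 0.11 and a log2 difference of 0.64 (SE 0.12, adjusted p = 0.0217). Leaving out any 1 of the trh null arrays cost grh and en their calls (adjusted p from 0.0653 to 0.103), and en also missed the threshold without wild type replicate 3 (0.0581). Both genes missed it with replicate number added to the fit (limma adjusted p = 0.0728 and 0.0802).

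By their brightest probe sets, the posterior spiracle targets ems, ct, crb and Cad86C had log2 differences of 0.81, 1.51, 0.75 and 1.08 without passing (limma adjusted p from 0.0628 to 0.152), and all trh null values were higher for each of them. The other sets of ct gave 0.70 and 0.63, and in the latter the groups overlapped. The transcription factor genes zfh1 and chinmo, targets in the somatic stem cells of the testis, had log2 differences of 1.54 and 0.14 with wild type SDs of 1.19 and 1.43. Other probe sets of chinmo gave 0.88 and 0.27 without passing. Wild type replicate 2 was the lowest of the 6 arrays for 10 of these 14 targets and for 7 of the 11 modulators, against 22.4% of all genes. Without it, by the brightest probe set of each, 7 targets rose (ems, ct, grh, crb, Cad86C, en and zfh1) and chinmo fell. In that fit 17.4% of all genes passed as higher and 14.8% as lower, and the median log2 difference of the targets was 0.42. Other sets of chinmo gave -0.08 and 0.20 and those of ct gave 0.34 and -0.09, none of them passing. For Cad86C, 1628333_at passed as higher (0.76), 1638442_at passed as lower (-0.39) and 1626639_a_at gave 0.19. The second set of grh passed as higher (0.52). On all 6 arrays the log2 difference for kni was 0.03, for eve 0.14, for odd 0.45 and for dpn 0.28. Without wild type replicate 2 they were 0.24, 0.06, 0.17 and 0.42 in that order. The RhoGAP gene cv-c had a log2 difference of -0.19 (adjusted p = 0.198), with all trh null values lower.

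**Figure D3:**
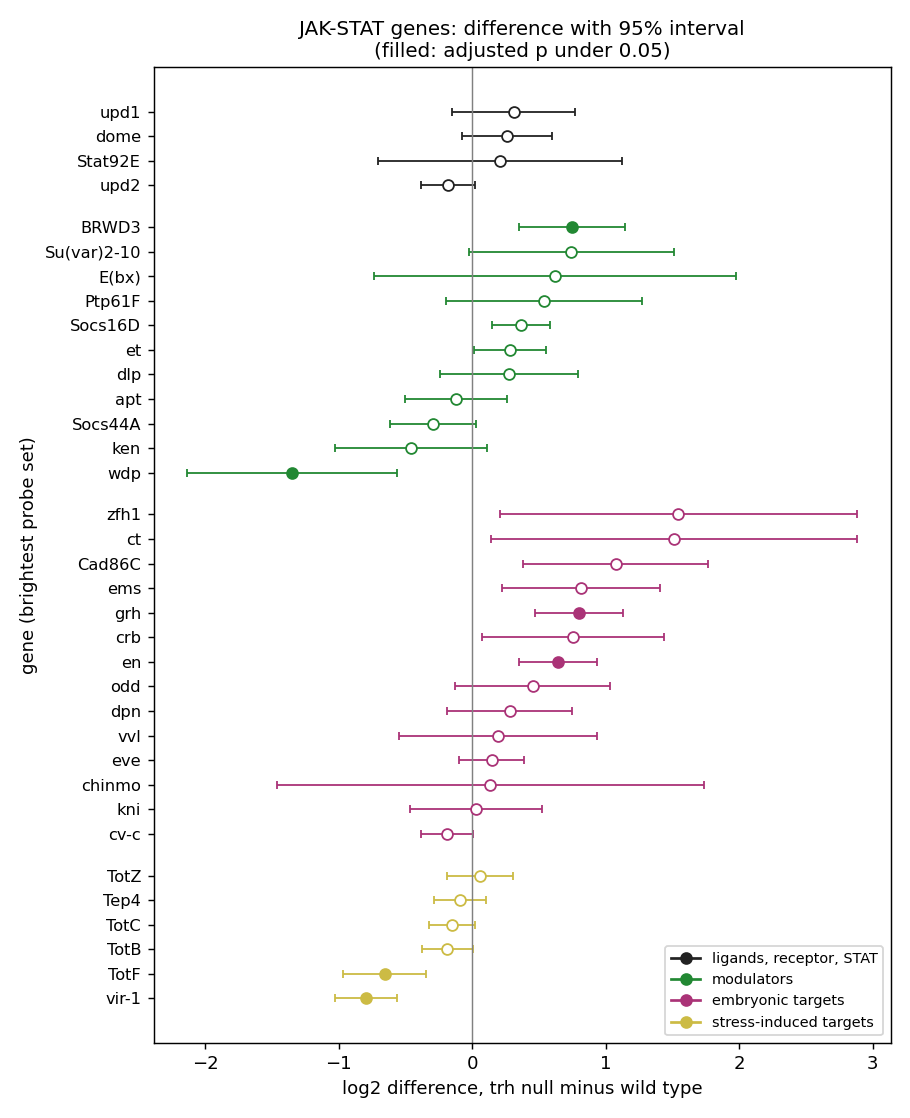
Log2 difference between trh null and wild type (x axis) with its 95% interval for each measured gene of the 4 groups (y axis), by its brightest probe set and fitted on all 6 arrays. Filled points passed at an adjusted p under 0.05: wdp and BRWD3 among modulators, grh and en among embryonic targets, TotF and vir-1 among stress-induced targets, and none of upd1, upd2, dome and Stat92E.

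The 2 probe sets of vvl, the POU factor gene that acts beside trh in tracheal cells and receives STAT input there, gave different answers. This gene was singled out after its values had been seen, as was the dimmer probe set of Cad86C below. The brightest set (1628729_at) had log2 signals of 9.63, 8.38 and 9.16 in wild type embryos and 9.07, 9.24 and 9.43 in trh null embryos, so that the groups overlapped (log2 difference 0.19, SE 0.31, limma adjusted p = 0.746, and -0.15 without wild type replicate 2). The other set (1626338_s_at) had 7.68, 6.97 and 7.91 in wild type embryos and 8.95, 9.38 and 9.37 in trh null embryos. There the groups were far apart, and the signal of vvl rose 3.29-fold (log2 difference 1.72, SE 0.26, adjusted p = 0.0105).

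Within an array, the signal of 1626338_s_at minus that of 1628729_at was -1.54 ± 0.37 on wild type and -0.01 ± 0.14 on trh null arrays (SD, n = 3) on the log2 scale. All 3 trh null arrays were above all 3 wild type arrays (exact two-sided permutation p = 0.1, the smallest that 3 against 3 arrays can give). The second vvl call was lost without trh null replicate 2 or 3 (limma adjusted p = 0.0587 and 0.0605), with log2 differences of 1.65 in both fits. That call was also lost with replicate number added to the fit (limma adjusted p = 0.0517). Where the probes of each set lie in the transcript was not given in the sources used here. For Cad86C a dim probe set (1628333_at) also passed, with a rise of 0.85 on the log2 scale (adjusted p = 0.00877, and 0.80 with adjusted p = 0.0539 without trh null replicate 3), while its 2 remaining sets gave 0.32 and -0.20.

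Of 6 measured stress-induced targets, vir-1 and TotF fell, 0 rose and 4 stayed under the threshold, with a median log2 difference of -0.17. Of all genes 7.31% passed as lower. All trh null values were below all wild type values for 4 of the 6, a separation seen in 19.4% of all genes. The virus-induced gene vir-1 had log2 signals of 9.38, 9.12 and 9.16 in wild type embryos and of 8.48, 8.37 and 8.44 in trh null embryos. Every trh null value was lower and the spread within each genotype was small. The signal of vir-1 fell 1.73-fold (log2 difference -0.79, SE 0.10, limma adjusted p = 0.00500), and it passed with any 1 array left out (adjusted p from 0.00146 to 0.0368). The Turandot gene TotF, of a family of secreted stress peptides, had log2 signals of 7.18, 7.64 and 7.32 against 6.69, 6.70 and 6.79 and fell 1.58-fold (log2 difference -0.66, SE 0.13, adjusted p = 0.0251). TotF no longer passed without wild type replicate 3 (adjusted p = 0.0552) or without any 1 of the trh null arrays (0.0935 to 0.109). Nor did TotF pass with replicate number added to the fit (limma adjusted p = 0.0812). TotB and TotC, both dim, had log2 differences of -0.19 and -0.15, TotZ had 0.06, and the complement-like gene Tep4 had -0.09.

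**Figure D4:**
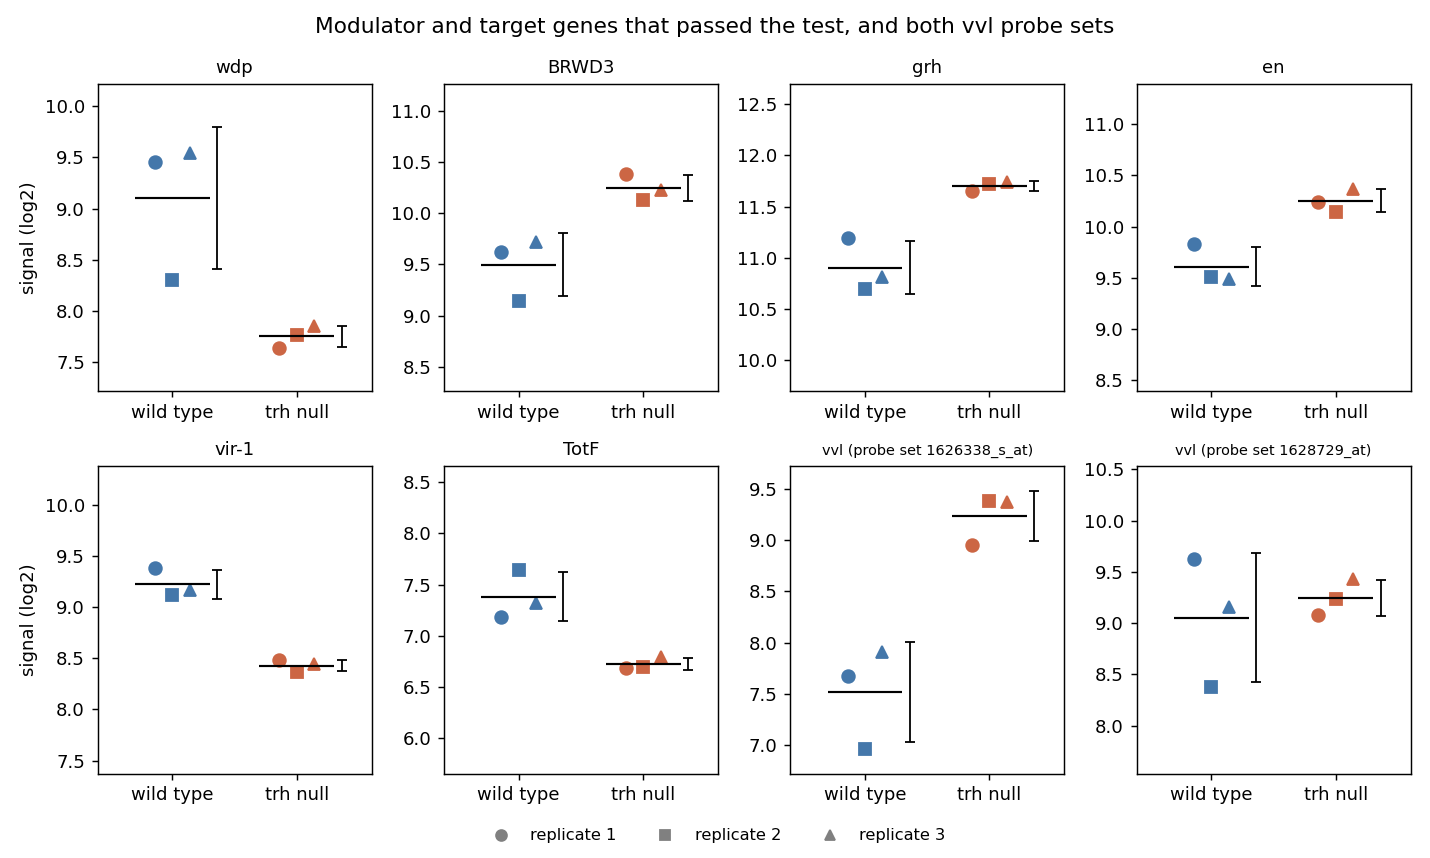
Log2 signal (y axis, spanning the same number of log2 units in each panel) of the 6 modulator and target genes that passed and of both probe sets of vvl, on 3 wild type and 3 trh null arrays. Points are arrays, horizontal bars are means and vertical bars are ± 1 SD; wild type replicate 2 (square) is the wild type value nearest to trh null for wdp, and only 1 of the vvl sets separates the genotypes.

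Marker lists of tissues and a measure of RNA quality were set beside these counts, with 14.1% of all genes passing. Of 5 measured posterior spiracle markers (2 of which, ems and ct, are also on the target list), eyg rose and 4 did not pass, among them grn with a log2 difference of -0.56 and all trh null values lower, and the mean log2 signal of the list was 8.17 to 8.99 on wild type and 9.17 to 9.42 on trh null arrays. Of 5 hindgut markers byn rose and 4 did not pass, cad with a log2 difference of -0.20, with list means of 8.43 to 8.71 and 8.76 to 8.83. Of 7 hemocyte markers Pxn and gcm rose and 5 did not pass, with list means of 7.44 to 7.59 and 7.82 to 7.86. Among those 5, Hml, crq and eater had log2 differences of -0.08, -0.04 and 0.01 with overlapping groups. For srp and NimC1 they were 0.62 and 0.33, with all trh null values higher. None of 3 neuron markers passed, but their list means did not overlap, at 7.83 to 8.42 on wild type and 8.83 to 9.06 on trh null arrays, with a median log2 difference of 0.56. Among them elav had a log2 difference of 1.65 (limma adjusted p = 0.0819) with all trh null values higher. For nSyb the log2 difference was 0.10 (limma adjusted p = 0.656) and the groups overlapped. Without wild type replicate 2, where 32.2% of all genes passed, elav and the brightest probe set of brp passed as higher. Another brp set (1625489_at) passed as lower in that fit (-0.43), and the remaining sets of brp gave 0.10 and 0.03. None of 4 germ cell markers passed, with list means of 5.74 to 5.96 and 5.81 to 6.64, and both measured muscle markers, Mlc1 and up, fell, with list means of 12.29 to 12.71 and 11.49 to 11.73. For the Act5C actin control probe sets, the log2 signal at the 3' end minus that at the 5' end was 2.28 ± 0.16 on wild type and 1.54 ± 0.27 on trh null arrays (SD, n = 3, exact two-sided permutation p = 0.1). The part of these differences in the values of the target genes was not tested.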

How the data were processed

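The authors deposited 1 table of log2 signals for 6 one-colour arrays. Processing is given as RMA and Partek with no version, per the submitters' processing notes; base 2 was inferred from the range of the deposited values and the named method. RMA as generally run makes the distributions of all arrays equal, so it can hide a change shared by all transcripts. Of 18952 probe sets, 183 controls were left out. The platform annotation named 1 gene for 13646 of the rest, several for 402 and none for 4721. Of several probe sets naming the same gene alone, the brightest stood for it. RefSeq's gene table (Release 6 plus ISO1 MT) gave neighbours only.

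Differences were tested with limma 3.58.1 (lmFit and eBayes, R 4.3.3), genotype being the sole term, with Benjamini-Hochberg adjustment over 18769 probe sets and a threshold of 0.05. The fit was tested on simulated data with the same spread in both genotypes. On the arrays the median SD over probe sets was 0.16 for wild type and 0.08 for trh null, which the simulation did not cover. Lists of modulators and targets, tissue markers and the naming rule came from general knowledge. The rule named every pathway gene and every modulator and target that passed by its brightest probe set. It also named the closest gene in pattern with above-median signal. Other list members are named for completeness. Members and lists were chosen with earlier results of these data known. Alternatives were normalization, variance prior, array weights, a filter on dim probe sets, the mean over probe sets, a stricter threshold, a replicate block and leaving out each array. Tables were joined with pandas 2.3.3 and drawn with matplotlib 3.10.9 in Python 3.11.15.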

Additional observations from a re-analysis of the deposited data

How the results depend on the processing

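None of upd1, upd2, dome and Stat92E passed under any alternative run (limma adjusted p from 0.0517 to 0.967), and upd2 was too dim for the filter that left out the 40% dimmest probe sets. Log2 differences with an array left out ran from 0.10 to 0.43 for upd1, from -0.22 to -0.12 for upd2, from 0.16 to 0.36 for dome and from -0.23 to 0.57 for Stat92E. Stat92E changed sign with array weights (-0.010) and without wild type replicate 2 (-0.23). Probe sets that passed numbered 2219, against 6003 with array weights, 726 with the replicate block, 738 at an adjusted p under 0.01 and 704 to 5001 with an array left out. Modulators that passed numbered 2, against 7 with array weights, 0 with cyclic loess, the replicate block or the stricter threshold, and 0 to 6 with an array left out. Embryonic targets that passed numbered 2, against 6 with array weights, 0 with the replicate block or the stricter threshold, and 0 to 8 with an array left out. Stress-induced targets that passed numbered 2, against 3 with array weights, 1 with the replicate block or the stricter threshold and 1 to 2 with an array left out. The cause was not tested, beyond leaving out an array also taking away 1 of 3 replicates. No pairing by replicate number was seen: deviations of same-numbered arrays correlated at -0.37, -0.06 and -0.05. Those of differently numbered arrays correlated at -0.18 to 0.37, and so few arrays cannot exclude a pairing. The actin and GAPDH ratios of 3' over 5' signal, with leaving out an array added after the data were seen, stayed lower on trh null arrays (-0.83 to -0.59 and -0.33 to -0.21). The number of arrays, the wild type spread and dim signal limit every value.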

Other observations

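In RefSeq's gene table upd2, upd3 and upd1 lie together on the X chromosome, with CG15059 as the only other protein-coding gene between upd2 and upd1, and et is the nearest protein-coding gene to dome on one side. CG15059 had a log2 difference between trh null and wild type of -0.01 (SE 0.10, limma adjusted p = 0.974), and CG6023, on the far side of upd1, had 0.25 (SE 0.13, adjusted p = 0.279). Pa1 beside hop had a log2 difference of 0.78 (SE 0.21, adjusted p = 0.0628), and kel and CG17681 on either side of Socs36E had -0.20 and 0.48 (adjusted p = 0.306 and 0.0734). MtnD, a metallothionein gene next to Stat92E, had -0.68 (adjusted p = 0.103). These neighbours were looked at after the values of the pathway genes had been seen, and none of them passed.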
